A study of Homo sapiens with 6 samples.

Results

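Histone genes were examined in COV434, an established human line of ovarian origin that the study counts among its models of SCCOHT, a small cell ovarian cancer with hypercalcemia that lacks BRG1 protein. The members were the rows of the deposited gene table whose symbol begins with HIST1H to HIST4H, H1F, H2AF or H3F, which gave 87 of 19899 genes. Of these, 71 were clustered histone genes (the HIST symbols) and 16 were variant histone genes (the other symbols). The samples were 3 Control and 3 BRG1 transfections of parental COV434 cells. A pCDNA3-neo or a PBJ5-BRG1 plasmid was delivered with pBABE-puro, so that both groups carried a plasmid and puromycin resistance. The ratio of plasmid to pBABE-puro was 6.25 to 10. Puromycin at 2 to 3 µg/ml was added after 24 hours and the cells were harvested 3 days later. Ratio and dose are given as ranges, and the values used for each replicate are not stated. BRG1 is the ATPase encoded by SMARCA4 and drives the SWI/SNF chromatin remodeling complex. As a model the samples are limited in that BRG1 came from a transfected plasmid and that puromycin selected for the resistance plasmid, not for BRG1 itself.

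Histones package DNA into nucleosomes. Most clustered histone genes are replication dependent: they are transcribed in S phase, lack introns, and their mRNAs normally end just after a stem-loop that binds the protein SLBP, with no poly(A) tail. Variant genes encode replacement histones, such as H3.3 and H2A.Z. Most are expressed through the cell cycle and give ordinary polyadenylated mRNAs, but H2AFX also holds a stem-loop (below). The libraries were made with poly(A) selection, so the values of clustered genes cover only the transcripts that were captured in this way. Transcripts that carry no tail were not measured, and this limit may apply to H2AFX as well. Because these are bulk samples, fewer cells in S phase and less histone RNA per cell cannot be told apart.

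The libraries held between 29699741 and 63613710 estimated counts, with BRG1 replicate 3 the shallowest. SMARCA4 rose from 1439, 1676 and 1538 normalised counts (estimated counts divided by the DESeq2 size factor of the sample) in Control replicates 1 to 3 to 108655, 79075 and 78589 in BRG1 replicates 1 to 3, with transcripts of the plasmid included (DESeq2 adjusted p 5.4e-216). Of 8 markers of granulosa cells, to which the line has been likened, 2 were called higher by DESeq2 (CYP19A1 and INHBB) and 0 lower, their summed level rose from between 312 and 488 to between 811 and 1172 normalised counts, and the defining genes FOXL2 and FSHR stayed at 3 counts or fewer in every sample. Of 4 endothelial markers 2 were called higher (VWF and CDH5) and 0 lower, with a summed level of 28.0 to 95.4 in Control and 3357 to 3938 in BRG1 samples. None of 5 immune markers was called, with sums of 344 to 677 and 368 to 736 that were nearly all PTPRC. The part of these marker changes in the histone values was not tested.

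The 3′ ends of the genes, which bear on what a poly(A) library can hold, separated clustered from variant genes by sequence. The histone stem-loop was searched for on the sense strand in the 300 bases after the stop codon, as GG, 3 bases of any kind, TTNTNA, 3 bases that pair with the former 3, and CC. It was found in 69 of 71 clustered genes (97.2%), in 1 of 16 variant genes (H2AFX) and in 72 of 19919 protein-coding genes in all (0.361%). The only genes outside the members that held it were APLP1 and DLEU7. In this window HIST1H2AG and HIST1H2AK held no match to these letters. AATAAA, the most common polyadenylation signal, was present in the same window in 12.7% of clustered genes, 37.5% of variant genes and 27.4% of all protein-coding genes. The stem-loops of clustered genes that the results below turn on, and that of H2AFX, are shown with 5 bases on each side. Positions are on GRCh38 (hg38), sequences read 5′ to 3′ on the strand of the gene, and capitals mark the stem-loop, all of which lie in the 3′ UTR or at its end.
HIST1H1C, chr6:26055739-26055764, minus strand: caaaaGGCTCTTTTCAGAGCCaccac
HIST1H2BG, chr6:26216213-26216238, minus strand: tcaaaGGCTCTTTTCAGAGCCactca
HIST1H2BK, chr6:27146361-27146386, minus strand: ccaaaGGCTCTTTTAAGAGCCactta
HIST1H3H, chr6:27810511-27810536, plus strand: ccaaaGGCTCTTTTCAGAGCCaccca
HIST2H2AA4, chr1:149851569-149851594, plus strand: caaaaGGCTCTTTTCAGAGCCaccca
HIST3H2BB, chr1:228458533-228458558, plus strand: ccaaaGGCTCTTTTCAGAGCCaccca
HIST1H4H, chr6:26285126-26285151, minus strand: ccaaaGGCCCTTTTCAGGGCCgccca
H2AFX, chr11:119094893-119094918, minus strand: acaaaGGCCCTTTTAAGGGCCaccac
HIST1H1C, HIST1H2BG, HIST1H3H, HIST2H2AA4 and HIST3H2BB have the same 16 letters in capitals, although their values moved in different directions (below), and the other 3 differ within the stem or the loop.

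Both kinds of gene were well represented in the libraries (the plot of levels per kilobase). Of the clustered genes, 66 had a count in at least 1 sample, 44 had a mean of at least 10 normalised counts and 9 a mean of at least 1000. Summed over all members, clustered genes took between 0.0611% and 0.0923% of a library and variant genes between 0.182% and 0.229%. On a rough scale for comparing genes, normalised counts per kilobase of the representative transcript, the sums were 63076 for clustered and 68875 for variant genes. Both are means over the 6 samples. Division by the annotated length is only a rough correction for short transcripts, so these sums are not read against each other. The median transcript was 487 bases long for clustered and 1256 bases for variant genes. These lengths are of GENCODE release 44 and not those the authors' quantification used, and for a gene with a longer annotated transcript, such as HIST1H2AC (519 bases used), the value per kilobase is overstated if reads came from the longer one.

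**Figure D1:**
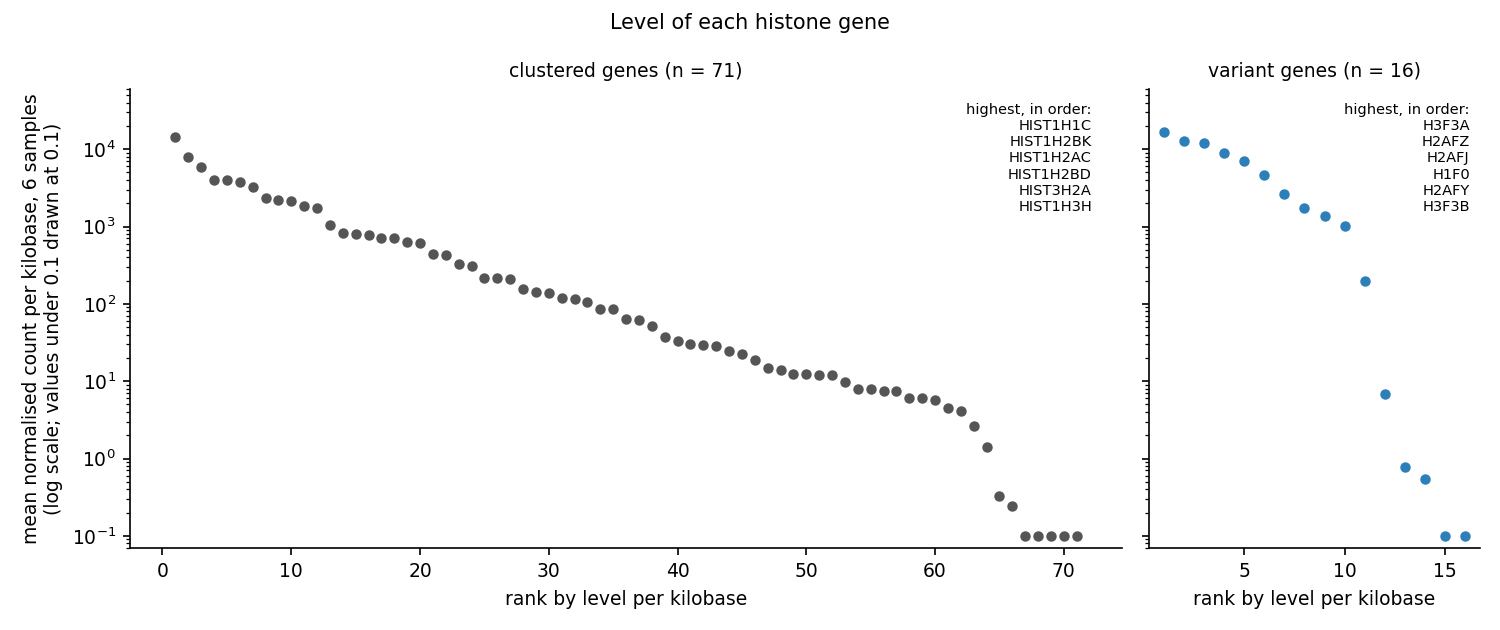
Mean normalised count per kilobase over 6 samples (log axis) against rank, for 71 clustered genes (left) and 16 variant genes (right). HIST1H1C at 14269.9 leads the clustered genes and H3F3A at 16611 the variant genes, and the clustered genes extend down to 5 genes with no count.

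The clustered signal was concentrated in few genes. HIST1H1C, which encodes the linker histone H1.2, had the highest level of all clustered genes at 14269.9 normalised counts per kilobase and held 29.3% of the clustered counts. HIST1H2BK (7879 per kilobase) and HIST1H2AC (5957 per kilobase) followed, and the first 6 genes by count held 65.3% of the clustered counts. At the other end 10 clustered genes never exceeded 3 counts in any sample: HIST1H1A, HIST1H1D, HIST1H2AA, HIST1H2BA, HIST1H3I, HIST1H4F, HIST1H4G, HIST1H4L, HIST2H2AB and HIST3H3. Genes known from germ cells were nearly absent, with 7 of 9 at this floor (HIST1H2AA, HIST1H2BA, HIST3H3, H1FNT, H1FOO, H2AFB1 and H2AFB2) and the other two, HIST1H1T and H2AFB3, at means of 4.42 and 4.07 normalised counts. Other linker genes of the HIST1 cluster were low as well, such as HIST1H1E at 12.3 and HIST1H1B at 7.51 normalised counts per kilobase.

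Clustered genes with an annotated protein-coding transcript that runs on past the stem-loop were among the better represented ones. In GENCODE release 44, 13 clustered genes have a transcript of protein-coding type that ends 50 or more bases beyond the stem-loop. Among them are HIST1H2AC, HIST1H2BD, HIST1H3H, HIST2H2BE, HIST3H2A and HIST3H2BB. Transcripts of other types were not counted. Their median level was 712 normalised counts per kilobase, with 10 of 13 at 200 or more. Among the 56 genes with a stem-loop and no such protein-coding transcript the median was 28.9 per kilobase, with 16 at 200 or more. Some of these 56, such as HIST1H4H, HIST2H4A and HIST2H4B, have annotated gene bounds that also run on past the stem-loop. The limit on transcript lengths given above applies to the first median. HIST1H1C and HIST1H2BK belong to the second group, and their transcripts end 4 and 5 bases after the stem-loop.

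Whether BRG1 changed histone gene expression was tested on the whole table. Over all 15991 genes with an adjusted p, DESeq2 called 11.0% higher and 1.84% lower with BRG1 (Benjamini-Hochberg adjusted p under 0.05), around a median log2 fold change of -0.01. Of the clustered genes 62 received an adjusted p, of which 1 was called higher and 0 lower. Of the variant genes 12 received one, of which 1 was called higher and 1 lower. By the quasi-likelihood test of edgeR, which called 9.57% of 14246 genes higher and 1.02% lower, no clustered gene was called and the same variant genes, H3F3B and H3F3A, were. At an unadjusted DESeq2 p under 0.05 there were 3 clustered genes higher and 4 lower, and 3 variant genes higher and 3 lower, where 15.1% of all tested genes were higher and 5.53% lower. The clustered genes tested had a median of -0.12 on the log2 scale and the variant genes one of -0.16.

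The count of lower genes depended on the pairing of the samples. Same-numbered Control and BRG1 samples deviated together from their group means, so the replicate number was also fitted as a block. With the block DESeq2 called 13.4% of 15640 genes higher and 6.62% lower, and edgeR called 13.7% of 14246 higher and 5.68% lower. Among the clustered genes, blocked DESeq2 called 1 higher (HIST2H2AA4) and 7 lower, of 59 with an adjusted p, and blocked edgeR called 1 higher and 5 lower of 47. Among 12 variant genes blocked DESeq2 called 3 higher (H3F3B, H1F0 and H1FX) and 3 lower (H3F3A, H2AFJ and H2AFV), and blocked edgeR called 2 and 2 of 11. As a share of those tested, clustered genes were called higher in 1.61% without and 1.69% with the block (all genes 11.0% and 13.4%) and lower in 0.00% and 11.9% (all genes 1.84% and 6.62%). The variant shares rest on 1 gene (8.33%) in each direction without the block and 3 genes of 12 with it. The estimates are shown gene by gene in the plot of fold changes.

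**Figure D2:**
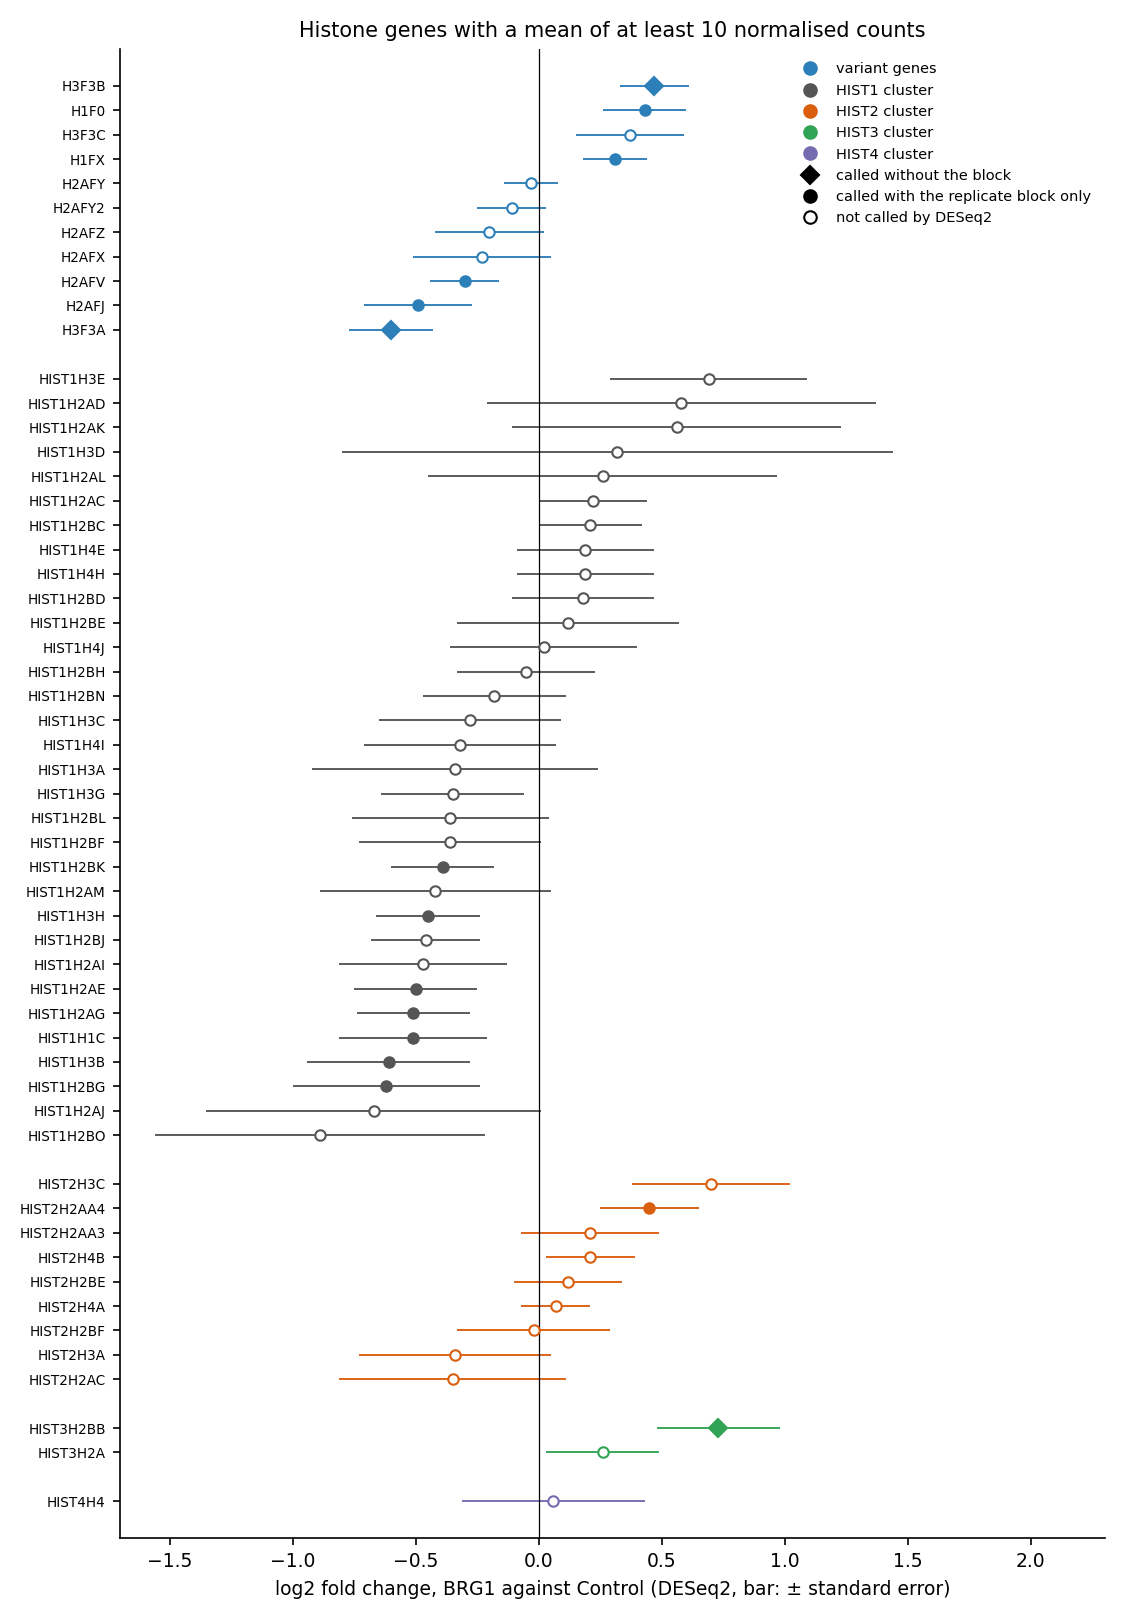
Log2 fold change of BRG1 against Control, with the DESeq2 standard error as the bar, for 11 variant and 44 clustered genes with a mean of at least 10 normalised counts. Diamonds mark the genes called without the block (H3F3B, H3F3A and HIST3H2BB), filled circles those called only with it and open circles the rest, and 20 of 32 genes of the HIST1 cluster lie below 0.

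The smallest DESeq2 adjusted p-values among all members belonged to opposite changes of both genes for H3.3, the replacement form of histone H3 that is deposited outside S phase. H3F3A held 20462, 20829 and 22969 normalised counts in Control replicates 1 to 3 and 11949.8, 14057 and 16378 in BRG1 replicates 1 to 3. Every BRG1 sample lay below every Control sample. H3F3A fell by 0.60 on the log2 scale (standard error 0.17, DESeq2 adjusted p 0.00332, edgeR adjusted p 0.0284), and it was called in each of 14 alternative fits.

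H3F3B, which encodes the same protein from another chromosome, moved the other way. Its normalised counts were 10340.0, 11384 and 10098 in Control and 14700.5, 16227 and 13021 in BRG1 replicates 1 to 3. Every BRG1 sample lay above every Control sample. The log2 fold change was 0.47 (standard error 0.14, DESeq2 adjusted p 0.0125, edgeR adjusted p 0.0463). The call was lost when 1 of 4 libraries was left out (Control replicate 1 or 3, BRG1 replicate 1 or 2), with DESeq2 adjusted p-values of 0.126, 0.113, 0.0605 and 0.125 in that order.

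The balance between the H3.3 genes therefore differed between the groups more than their sum did. The ratio of H3F3A to H3F3B normalised counts was 1.98, 1.83 and 2.27 in Control and 0.813, 0.866 and 1.26 in BRG1 replicates 1 to 3, or 2.03 ± 0.226 and 0.979 ± 0.243 (SD, n = 3). The ratio compares counts of transcripts of different length and is read only between samples. The sum of both genes was 32027 ± 1144 normalised counts in Control, against 28778 ± 1895 with BRG1 (SD, n = 3 each), a log2 change of -0.15, and here too the groups did not overlap. H3F3C, another gene of this family that encodes H3.5 and resembles H3F3B closely in sequence, had 195, 212 and 170 normalised counts in Control and 244, 284 and 215 in BRG1 replicates. Its log2 fold change of 0.37 was not called (DESeq2 adjusted p 0.366), and reads shared with H3F3B make its value uncertain.

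**Figure D3:**
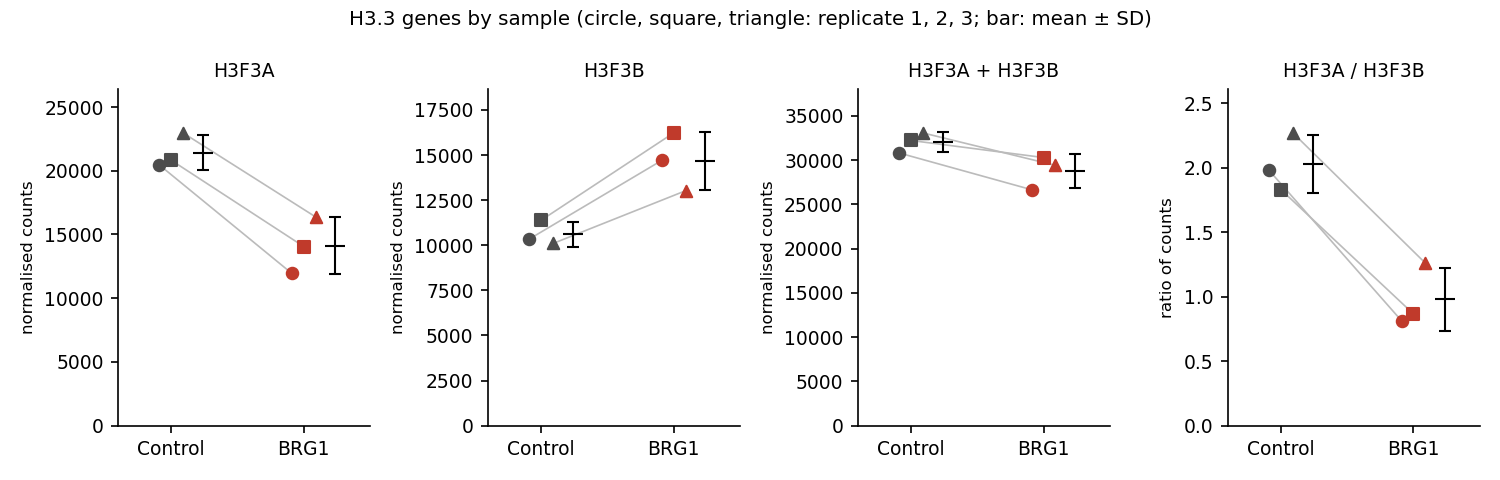
Normalised counts of H3F3A, of H3F3B and of their sum, and the ratio of both, in each sample, with lines joining samples of the same replicate number and bars giving mean ± SD (n = 3). H3F3A falls from a mean of 21420.1 to 14128 while H3F3B rises from 10607 to 14649, and in each panel the groups do not overlap.

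H3F3A and H3F3B differ in position, in coding bases and in the promoter motifs searched for. H3F3A lies on chromosome 1 (226061851 to 226072019, plus strand) and H3F3B on chromosome 17 (75776434 to 75785893, minus strand) of GRCh38, and their coding sequences of 408 bases differ at 88 bases (78.4% identity). Each has 4 exons in its representative transcript and is known to have processed pseudogenes, and how reads were divided with these was not measured. Their promoters, from 250 bases before to 50 bases after the RefSeq start (GRCh38.p14), are shown because the genes moved in opposite directions. Capitals mark CCAAT (bound by NF-Y) and the octamer ATTTGCAT (bound by OCT factors) on either strand, and TATAAA on the sense strand.
H3F3A, chr1:226061581-226061880, plus strand: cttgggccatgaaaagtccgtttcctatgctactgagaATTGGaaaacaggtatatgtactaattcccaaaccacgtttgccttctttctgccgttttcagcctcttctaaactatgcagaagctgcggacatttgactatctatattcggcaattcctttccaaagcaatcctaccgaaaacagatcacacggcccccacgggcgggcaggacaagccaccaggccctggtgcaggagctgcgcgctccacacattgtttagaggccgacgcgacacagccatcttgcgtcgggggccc
H3F3B, chr17:75779730-75780029, minus strand: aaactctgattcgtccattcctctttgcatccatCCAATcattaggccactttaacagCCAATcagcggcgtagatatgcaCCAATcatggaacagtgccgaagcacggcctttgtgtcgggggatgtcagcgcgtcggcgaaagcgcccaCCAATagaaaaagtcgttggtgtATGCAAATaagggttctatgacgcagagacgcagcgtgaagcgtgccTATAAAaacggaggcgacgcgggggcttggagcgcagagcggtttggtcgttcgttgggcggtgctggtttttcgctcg
H3F3B had 4 CCAAT matches, 1 octamer and 1 TATAAA, a combination also met in clustered genes, while H3F3A had 1 CCAAT match and neither of the others. These motifs are common to the family: CCAAT was found in 84.8%, the octamer in 39.4% and TATAAA in 59.1% of 66 clustered promoters, against 34.6%, 1.77% and 7.33% of all 35116 RefSeq promoters. Among 14 variant promoters the shares were 78.6%, 7.14% and 28.6%. A match is a description of the sequence and not evidence of binding. TGANTCA, a pattern that includes the AP-1 motif but is looser, was searched for after values had been seen. It was found in 1.52% of clustered, 0% of variant and 7.71% of all promoters. The clustered match was TGATTCA in HIST1H3G.

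Among linker histones the variant genes H1F0 and H1FX were estimated higher and the clustered gene HIST1H1C lower, with calls that depended on the block. H1F0, which encodes H1.0, a linker histone known from cells that have left the cycle, held 15409, 18689 and 15886 normalised counts in Control and 19246, 22156 and 25732 in BRG1 replicates 1 to 3. The groups did not overlap. The log2 fold change was 0.43 (standard error 0.17) with a DESeq2 adjusted p of 0.0865 without and 0.00293 with the replicate block, and an edgeR adjusted p of 0.141 and 0.0453. H1FX, the gene for the linker variant H1X, held 2597, 2238 and 2227 in Control and 3014, 2781 and 2952 in BRG1 replicates, with a DESeq2 adjusted p of 0.131 without and 0.0252 with the block. BRG1 samples were above Control samples for both genes, and the edgeR adjusted p of H1FX with the block was 0.0528.

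HIST1H1C, the clustered linker gene, had 14469.7, 7772 and 14489.7 normalised counts in Control and 10765, 6340.4 and 8751 in BRG1 replicates 1 to 3. Replicate 2 was low in both groups, and the groups overlapped. Within replicate numbers the BRG1 to Control fold was 0.744, 0.816 and 0.604. The log2 fold change was -0.51 (standard error 0.30, DESeq2 adjusted p 0.351) without the block and -0.48 (standard error 0.12, DESeq2 adjusted p 3.4e-04, edgeR adjusted p 0.012) with it. The ratio of summed H1F0 and H1FX to summed clustered H1 counts was 1.24, 2.68 and 1.25 in Control and 2.07, 3.92 and 3.27 in BRG1 replicates, higher with BRG1 within each number although the groups overlapped.

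The 7 H2A variant genes with an adjusted p, which include H2AFB3 at a mean of 4.07, were all estimated below 0. Of all 15991 tested genes 8265 were. H2AFJ, which encodes H2A.J, held 6964, 8885 and 10240.0 normalised counts in Control and 4879, 6549 and 7163 in BRG1 replicates 1 to 3. The groups overlapped, since BRG1 replicate 3 exceeded Control replicate 1, but the fold within numbers was 0.701, 0.737 and 0.699. Its log2 fold change of -0.49 had a DESeq2 adjusted p of 0.151 without and 7.7e-07 with the block (edgeR 0.185 and 0.00384). H2AFV, one of both genes for H2A.Z, held 4289, 4764 and 4824 in Control and 3793, 3412 and 4087 in BRG1 replicates. The groups did not overlap, with a DESeq2 adjusted p of 0.174 without and 0.039 with the block (edgeR 0.16 and 0.0529, not called). In contrast to the linker variants, none of the 6 H2A variant genes with a mean of at least 10 had an estimate above 0.

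The other H2A variants were not called in any of 14 alternative fits. H2AFZ, the other H2A.Z gene, lay between 9311 and 14336 normalised counts in Control samples and between 8331 and 11422 after BRG1 (log2 fold change -0.20, DESeq2 adjusted p 0.723). For H2AFX, whose product is phosphorylated at DNA breaks, the estimate was -0.23 on the log2 scale (DESeq2 adjusted p 0.772), with levels between 2537 and 5533. H2AFY and H2AFY2, which encode the macroH2A proteins associated with silent chromatin, had log2 fold changes of -0.03 and -0.11 with standard errors of 0.11 and 0.14 (DESeq2 adjusted p 0.943 and 0.786). The estimate for H2AFY turned to 0.02 with total counts as size factors and to 0.01 without BRG1 replicate 2.

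Clustered core histone genes that fell with the block all lay in the HIST1 cluster on chromosome 6. HIST1H2AG held 1747, 1645 and 2261 normalised counts in Control and 1123, 1184 and 1664 in BRG1 replicates 1 to 3, with a fold within numbers of 0.643, 0.719 and 0.736. The groups overlapped by 1 sample of each. The log2 fold change was -0.51 with a DESeq2 adjusted p of 0.139 without and 2.5e-04 with the block (edgeR 0.187 and 0.00763). HIST1H3H, an H3.1-type gene, held 1969, 1875 and 2432 in Control and 1257, 1505 and 1839 in BRG1 replicates. Here every BRG1 sample lay below every Control sample. Its DESeq2 adjusted p was 0.16 without and 0.00308 with the block.

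The other core genes lower with the block were HIST1H2BG, HIST1H2BK, HIST1H2AE and HIST1H3B. HIST1H2BG held 647, 375 and 812 normalised counts in Control and 392, 235 and 567 in BRG1 replicates, which overlap as groups and fall within each number (blocked DESeq2 adjusted p 0.00243). HIST1H2BK, the clustered gene with the second highest level, held 4902, 3871 and 4514 in Control and 3119.8, 2762 and 4231 in BRG1 replicates, with folds of 0.636, 0.714 and 0.937 (blocked DESeq2 adjusted p 0.0168). For HIST1H2AE the blocked adjusted p was 0.0378 with folds between 0.68 and 0.732. For HIST1H3B it was 0.039 with folds between 0.541 and 0.893. Blocked edgeR called HIST1H2BG and HIST1H2AE but not HIST1H2BK or HIST1H3B (adjusted p 0.0152, 0.0424, 0.0551 and 0.0537). Without the block, leaving out BRG1 replicate 3 brought HIST1H2AG, HIST1H2BK and HIST1H3H under the threshold (DESeq2 adjusted p 0.00419, 0.00586 and 0.0172), and leaving out Control replicate 2 did so for HIST1H1C (0.0448).

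**Figure D4:**
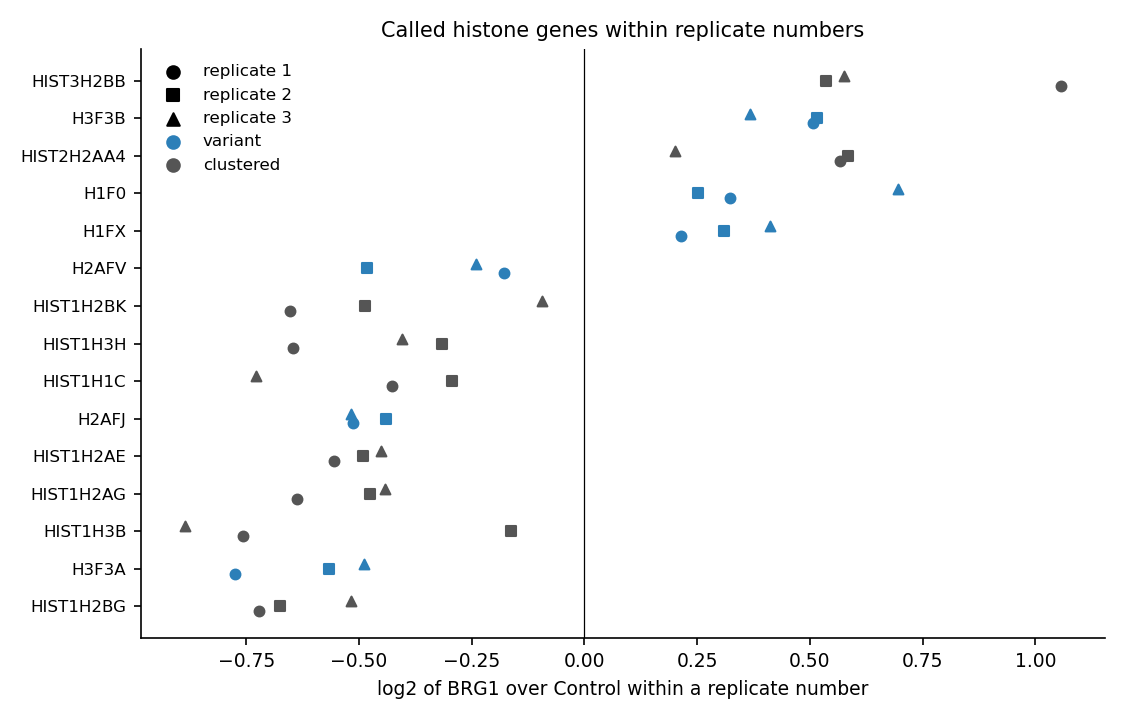
Log2 of the BRG1 to Control ratio of normalised counts within replicate numbers 1, 2 and 3 for the 15 members called by DESeq2 with or without the block. All 3 points of each gene fall on 1 side of 0, with 5 genes above it and 10 below it, and these points are from the samples that gave the calls.

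Genes in the smaller clusters on chromosome 1 moved upward where they were called. HIST3H2BB, an H2B gene, held 102, 109 and 122 normalised counts in Control and 213, 159 and 182 in BRG1 replicates 1 to 3. The groups did not overlap, and the log2 fold change of 0.73 (standard error 0.25) was the only clustered call without the block (DESeq2 adjusted p 0.0276). It was not called by edgeR (adjusted p 0.125), by DESeq2 with the block (0.0785) or when any 1 of the 6 libraries was left out (0.0602 to 0.266). HIST3H2A, the H2A gene that starts 229 bases away on the opposite strand, held between 1538 and 2067 in Control and between 1803 and 2836 in BRG1 samples, with a log2 fold change of 0.26 that was not called (DESeq2 adjusted p 0.641).

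HIST2H2AA4, an H2A gene of the HIST2 cluster, held 1091, 829 and 1035 normalised counts in Control and 1617, 1243 and 1187 in BRG1 replicates 1 to 3. The BRG1 samples were all higher than the Control samples, with a DESeq2 adjusted p of 0.143 without and 0.0157 with the block (edgeR 0.199 and 0.0325). Its coding sequence is identical to that of HIST2H2AA3, and how reads were split between them is therefore uncertain. Their sum was 2195, 1411 and 2113 in Control and 2845, 2184 and 2225 in BRG1 replicates, which was higher within each number (1.3, 1.55 and 1.05) with overlapping values of 2184 against 2195. Coding sequences are identical in the pair HIST2H4A and HIST2H4B as well, whose sum was 1579, 1526 and 1505 normalised counts in Control and 1611, 1710.3 and 1725 in BRG1 replicates, without overlap. They are also identical in HIST2H3A and HIST2H3C, whose sums overlapped, at 144 ± 32.4 in Control and 159 ± 26.6 with BRG1 (SD, n = 3 each).

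The clusters are set side by side as counts, without a test between them. In the HIST1 cluster 48 of 55 genes received an adjusted p, and their median log2 fold change was -0.33. With the block 0 of 45 tested HIST1 genes were called higher and 7 lower (15.6%), where 13.4% and 6.62% of all genes were. In the HIST2 cluster the median was 0.12 over 11 genes, with 1 higher and 0 lower. In the HIST3 cluster it was 0.49 over 2 genes, and the single tested gene of HIST4 had an estimate of 0.06. Summed counts changed by -0.31 on the log2 scale for HIST1, 0.20 for HIST2 and 0.29 for HIST3, and the groups overlapped in each of these sums. A promoter of each direction is printed, HIST1H2AG (lower with the block) and HIST2H2AA4 (the only clustered gene called higher with the block). Their coding sequences of 390 bases are 86.4% identical, and the same motifs are in capitals.
HIST1H2AG, chr6:27132793-27133092, plus strand: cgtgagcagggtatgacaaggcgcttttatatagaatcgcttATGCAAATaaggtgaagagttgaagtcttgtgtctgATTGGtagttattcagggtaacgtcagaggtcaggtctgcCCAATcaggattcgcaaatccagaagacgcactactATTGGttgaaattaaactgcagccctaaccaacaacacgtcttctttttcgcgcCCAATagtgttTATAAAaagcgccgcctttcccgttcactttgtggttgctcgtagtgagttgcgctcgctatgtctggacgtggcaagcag
HIST2H2AA4, chr1:149850811-149851110, plus strand: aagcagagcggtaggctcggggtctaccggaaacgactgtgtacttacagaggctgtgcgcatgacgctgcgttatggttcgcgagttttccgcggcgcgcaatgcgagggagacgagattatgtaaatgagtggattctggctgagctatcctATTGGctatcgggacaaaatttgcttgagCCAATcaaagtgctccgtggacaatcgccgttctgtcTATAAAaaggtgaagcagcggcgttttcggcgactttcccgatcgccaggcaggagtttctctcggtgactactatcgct
Both hold TATAAA and CCAAT, and the octamer is found only in HIST1H2AG among this pair. Of the other clustered genes lower with the block, HIST1H2BG, HIST1H2BK and HIST1H2AE hold it. HIST1H1C, HIST1H3H and HIST1H3B do not. By class the octamer was present in 68.8% of clustered H2A and 77.8% of clustered H2B promoters but in 0% of clustered H1 and H4 promoters, and CCAAT was in 100% of H1, H2A, H2B and H3 promoters and in 23.1% of those of H4. The ratio of HIST1H2AG to summed HIST2H2AA3 and HIST2H2AA4 counts was 0.796, 1.17 and 1.07 in Control and 0.395, 0.542 and 0.748 in BRG1 replicates. This pair was chosen after its values were seen.

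By histone class the clustered sums differed in their direction (the plot of class sums). Clustered H3 summed to 3128, 2625 and 3351 normalised counts in Control and 2155, 2233 and 2518 in BRG1 replicates 1 to 3, with no overlap and a log2 change of -0.40. Clustered H1, nearly all HIST1H1C, changed by -0.51 and clustered H2B by -0.15, while clustered H2A and H4 changed by 0.08 and 0.13, all with overlapping groups. All clustered genes together summed to 37856 ± 7747 normalised counts in Control, against 33273 ± 4383 with BRG1 (SD, n = 3 each), a log2 change of -0.19 that was -0.06 without HIST1H1C and between -0.35 (without Control replicate 2) and -0.08 (without BRG1 replicate 2) when 1 library was left out. Variant genes together summed to 96459 ± 7080.1 and 93531 ± 8702, a change of -0.04 that was 0.01 with counts scaled to the library total and 0.03 without BRG1 replicate 1. The difference of the variant totals was smaller than the SD of either group. That of the clustered totals was smaller than the SD in Control but not than that in BRG1 samples. Within replicate numbers the clustered total was 0.868, 0.975 and 0.825 of Control, lower in each, and the variant total 0.953, 0.942 and 1.01. The ratio of clustered to variant counts was 0.396 ± 0.0969 in Control and 0.359 ± 0.0666 in BRG1 samples.

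**Figure D5:**
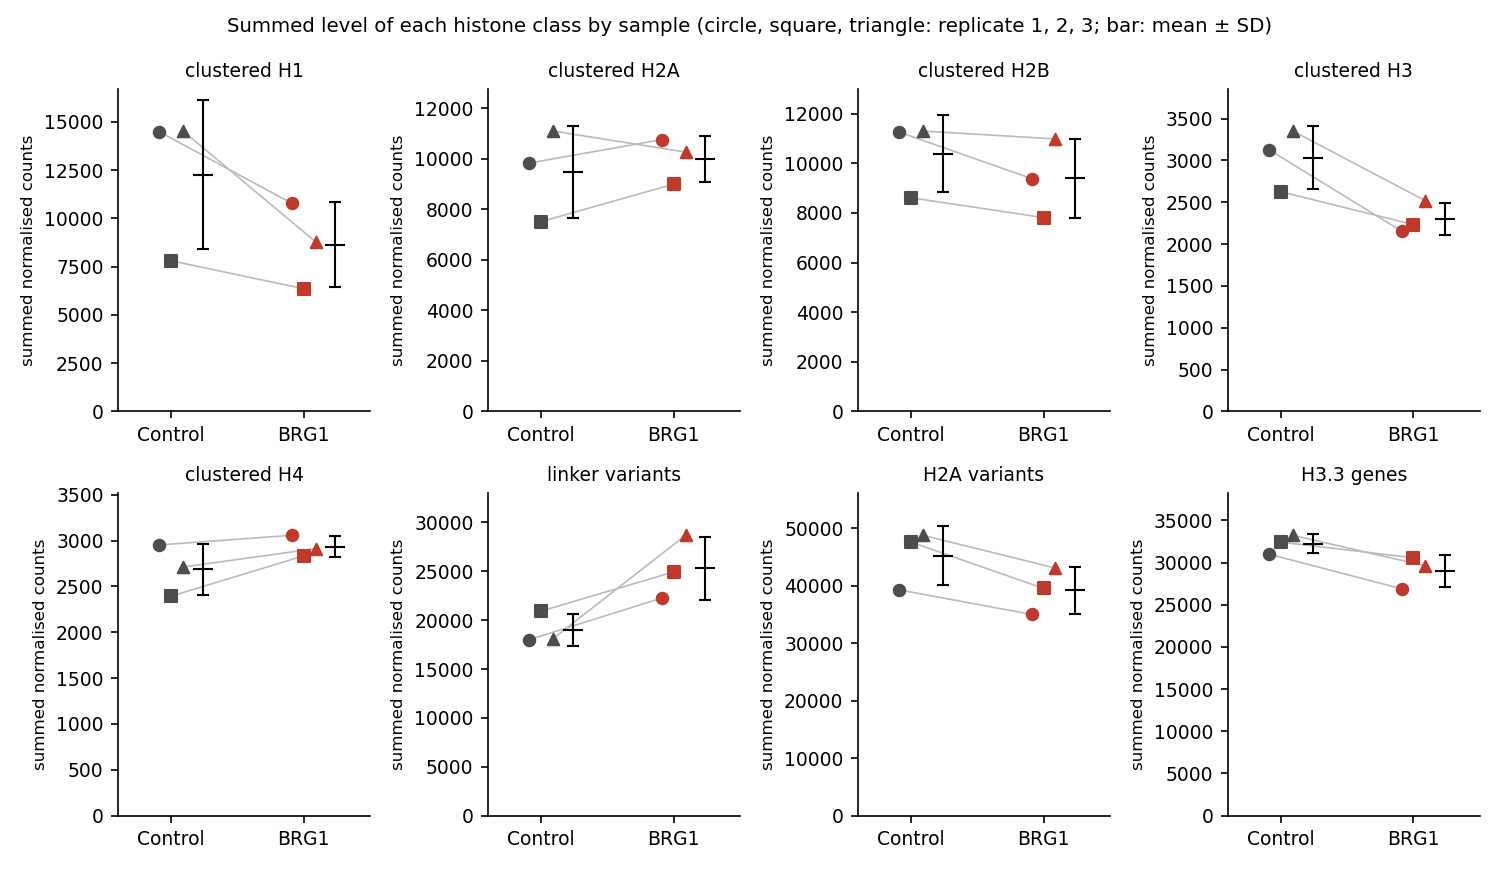
Summed normalised counts of 5 clustered classes and 3 variant classes in each sample, with lines joining equal replicate numbers and bars giving mean ± SD (n = 3). Linker variants rise from a mean of 19016 to 25294 and clustered H3 falls from 3035 to 2302, both without overlap, and the H3.3 genes (H3F3A, H3F3B and H3F3C) change by -0.15 on the log2 scale.

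Separation of the groups was also counted gene by gene. Of the 62 tested clustered genes 4 had all BRG1 samples above all Control samples and 6 had all below (6.45% and 9.68%), where the shares over all genes were 16.7% and 9.92%. Of the 12 tested variant genes 4 were above and 2 below (33.3% and 16.7%). Among the 44 clustered genes with a mean of at least 10, 9 were higher and 16 lower in all 3 replicate numbers. Over all tested genes 27.3% and 27.4% were, and over the 14220 with such a mean 3797 and 4214. Histone H2A and H2B genes often share a promoter region in head-to-head pairs. There were 14 head-to-head pairs of members within 1000 bases, 12 of them of an H2A with an H2B gene. Of the 14 pairs 9 had both genes at a mean of at least 10, and 6 of these had estimates of the same sign. Examples are HIST1H2BG and HIST1H2AE (-0.62 and -0.50) and HIST1H2BJ and HIST1H2AG (-0.46 and -0.51). The signs were opposite for HIST1H2AD and HIST1H2BF (0.58 and -0.36) and HIST1H2AK and HIST1H2BN (0.56 and -0.18). They were also opposite for HIST2H2BE and HIST2H2AC (0.12 and -0.35). Over all tested genes 7726 estimates were above and 8265 below 0, and agreement within pairs was not tested.

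Genes with an annotated protein-coding transcript past the stem-loop had a higher median estimate than those without. The median log2 fold change was 0.15 over 12 genes with a mean of at least 10 that have such a transcript. It was -0.33 over 30 genes that have a stem-loop and no such protein-coding transcript. The annotated bounds of HIST1H4H, HIST2H4A, HIST2H4B and HIST4H4, which are among these 30, also run on past the stem-loop. With the block 0 were called higher and 1 lower (HIST1H3H) among the 13 tested genes of the first group, and 1 higher and 5 lower among the 44 tested of the second, beside 13.4% higher and 6.62% lower over all genes. This difference was not tested, and which transcript the reads came from was not measured. HIST1H2AC and HIST1H2BD, both highly represented genes of the first group, were not called. HIST1H2AC held 2814, 2186 and 3561 normalised counts in Control and 3272, 3039 and 3678 in BRG1 replicates (log2 fold change 0.22, DESeq2 adjusted p 0.681). HIST1H2BD had a log2 fold change of 0.18 (adjusted p 0.842), which was -0.06 without Control replicate 2.

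Genes that transcribe and process clustered histone mRNA were not called without the block. Of 23 genes for transcription and 3′ processing 0 were called in either direction by DESeq2 (0 at an unadjusted p under 0.05) and 0 by edgeR. With the block 0 were called higher and 2 lower, E2F1 and NCBP1 (edgeR 0 and 1), where 6.62% of all genes were lower (edgeR 5.68%). SLBP, which binds the stem-loop, held 3475, 4201 and 3536 normalised counts in Control and 2685, 3776 and 3279 in BRG1 replicates (log2 fold change -0.20, DESeq2 adjusted p 0.648). NPAT, the coactivator of clustered histone transcription, and CASP8AP2, its partner, had log2 fold changes of -0.21 and -0.18 (DESeq2 adjusted p 0.588 and 0.837), and that of CASP8AP2 was 0.03 without Control replicate 3 or without BRG1 replicate 1. NCBP1, a subunit of the cap-binding complex, fell within each number to between 0.8 and 0.829 of Control (blocked DESeq2 adjusted p 0.0112). E2F1, a cell cycle transcription factor, had folds of 0.531, 0.705 and 0.956 (blocked DESeq2 adjusted p 0.0301) and was not called by blocked edgeR (adjusted p 0.0727).

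Histone chaperones, which carry and deposit histones, had mostly lower estimates. Of 29 genes DESeq2 and edgeR each called 0 higher and 1 lower, and with the block 0 higher and 7 lower (edgeR 0 and 6). Over all genes 6.62% were called lower with the block (edgeR 5.68%). The median log2 fold change was -0.21 with 23 estimates below 0, where 8265 of all 15991 tested genes were below 0. The gene called in each fit was NPM1, an abundant nucleolar chaperone, which fell from 112825, 104511 and 104840.4 to 80420.2, 76326 and 79362 normalised counts (log2 fold change -0.45, DESeq2 adjusted p 4.0e-04). For CHAF1B, a subunit of the CAF-1 complex that deposits replication-dependent H3, the log2 fold change was -0.42 (DESeq2 adjusted p 0.247 without and 0.0257 with the block, blocked edgeR 0.0517 and not called), and for IPO4, an importer of histones, it was -0.30 (0.0978 and 0.0135). No overlap between groups was seen for any of these 3 genes.

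S phase genes, a list that also holds SLBP, had the same sign of estimate throughout, but not in every replicate number. All 30 listed genes had a log2 fold change below 0, with a median of -0.35 where that of all tested genes was -0.01. None was called by DESeq2 or edgeR without the block (1 at an unadjusted DESeq2 p under 0.05). With the block 0 were called higher and 13 lower (edgeR 0 and 5), where 6.62% of all genes were lower (edgeR 5.68%). PCNA, the sliding clamp of replication, held 6532, 6613 and 7506 normalised counts in Control and 3850.3, 5323 and 6751 in BRG1 replicates 1 to 3, with a DESeq2 adjusted p of 0.376 without and 0.0192 with the block (edgeR 0.352 and 0.0639, not called). RRM1, of ribonucleotide reductase, had a log2 fold change of -0.44 (0.117 and 0.00124), and MCM6, of the replicative helicase, one of -0.35 (0.371 and 0.00709). Of the 30 genes, 19 were lower in all 3 replicate numbers, among them PCNA, RRM1 and MCM6. This held for 4214 of the 14220 genes with a mean of at least 10. Others fell in replicate 1 and not in replicate 3, such as MCM2 with folds of 0.488, 0.77 and 1.05. Of the HIST1 genes lower with the block, HIST1H2AG, HIST1H2AE, HIST1H2BG, HIST1H2BK and HIST1H3H fell most in replicate 1. HIST1H1C and HIST1H3B fell most in replicate 3. The part of a change in S phase in the histone values was not tested.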

How the data were processed

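RNA-seq of 3 Control and 3 BRG1 samples was analysed, from unstranded poly(A) libraries (TruSeq mRNA v2, 500 ng of RNA) read as pairs of 78 bases. The submitters' processing notes name FastQC 0.11.5, STAR 2.5.3a, Salmon 0.8.2, DESeq2 1.22.2 and hg38, and the study's methods name GENCODE release 24 and tximport. The deposited values are expected counts (estimated counts per gene symbol), which the authors made as length-scaled TPM. Salmon's model divided reads that fit several genes, so near-identical histone genes have uncertain values, and without strand antisense transcripts add to a gene.

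Estimated counts were rounded and tested over the whole table with DESeq2 1.42.0 (Wald test, median-ratio size factors, independent filtering) in R 4.3.3, since the study used DESeq2. A gene was called at a Benjamini-Hochberg adjusted p under 0.05. edgeR 4.0.16 (quasi-likelihood, TMM) stands beside it for its rate of false calls. Tests on simulated data showed an excess of false DESeq2 calls over the stated rate and about the stated rate for edgeR. The simulated counts carried no replicate effect, so these rates were not measured for samples paired by number. Alternatives were limma 3.58.1 (voom), other size factors, a filter of 10 counts in 3 samples, no independent filtering, a replicate block and leaving out each library. Deviations from group means correlated at 0.507, 0.522 and 0.59 for same-numbered samples over 15991 genes, against -0.524 to 0.0906 for other pairs, so the numbers were taken to pair the samples. The labels give only numbers and do not say whether replicates were separate cultures, so p-values measure the spread between these samples. Totals of 29699741 to 63613710 estimated counts set the counting error. Genes with 3 counts or fewer in each sample were at the floor.

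Positions, representative transcripts and 3′ ends came from GENCODE release 44 (87 members matched) and promoters from RefSeq (80 matched), on GRCh38. Named genes were the members called by DESeq2 with or without the block, the 6 clustered and 6 variant genes with the highest mean count, other variant genes with a mean of at least 10, SLBP, NPAT, CASP8AP2, PCNA, the called genes with the 3 smallest p of each context list, and SMARCA4. Genes named outside this rule were chosen after their values were seen. The members and lists were chosen with earlier results of these data known.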

Additional observations from a re-analysis of the deposited data

How the results depend on the processing

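Clustered genes called higher numbered 1 by DESeq2 and 0 by edgeR, by limma-voom and without any 1 library (range 0 to 0). Clustered genes called lower numbered 0, but 1 without Control replicate 2 and 3 without BRG1 replicate 3 (range 0 to 3 over the 6 libraries). Variant genes called higher numbered 1, and 0 without Control replicate 1, Control replicate 3 or BRG1 replicate 2 (range 0 to 1). Without BRG1 replicate 3, 4 histone chaperones and 2 S phase genes were called lower in place of 1 and 0 (ranges over the libraries 1 to 4 and 0 to 2). With the replicate block, which follows the pairing of the numbers, DESeq2 and edgeR called 7 and 5 clustered genes lower, 3 and 2 variant genes higher, 3 and 2 variant genes lower, 2 and 1 histone supply genes lower, 7 and 6 chaperones lower, and 13 and 5 S phase genes lower.

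The median log2 fold change of clustered genes, -0.12, ranged from -0.29 (without Control replicate 2) to -0.05 (without Control replicate 3), and was between -0.14 and -0.02 in the other fits. That of variant genes, -0.16, was -0.11 with total counts as size factors or with the filter of 10 counts in 3 samples and ranged from -0.35 (without Control replicate 1) to -0.05 (without Control replicate 2). Of the 35 named genes 3 turned sign in some fit: H2AFY (0.02 with total counts as size factors; -0.05 to 0.01 over the libraries left out, 0.01 without BRG1 replicate 2), HIST1H2BD (-0.06 without Control replicate 2 to 0.34 without Control replicate 1) and CASP8AP2 (-0.36 without Control replicate 1 to 0.03 without Control replicate 3 or BRG1 replicate 1). No scaling moved the median of all genes by more than 0.1 on the log2 scale. With 3 samples a group, small changes of low genes were not detectable, and counts of 3 or fewer carry no fold.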
